A study of Homo sapiens with 4 samples.

Results

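The AP-1 and immediate-early transcription factors are 9 genes, JUN, JUNB, JUND, FOS, FOSB, FOSL1, FOSL2, ATF3 and EGR1, and they were followed through 2 lists of N6-methyladenosine (m6A) peaks. The genes were selected on earlier results of these lists, and a peak was counted for a gene when its summit fell inside the gene's span on build hg19. This gave 11 peaks of the 115281 in both lists, 5 of 63093 in the control list and 6 of 52188 in the CDCA list. Because the choice was made with these values known, the counts are a description and carry no test. The spans are given in steps of 1 kb, so distances from a gene's ends are approximate.

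The cells were GES-1, a human gastric epithelial cell line grown in RPMI-1640. Control cells had no treatment, and treated cells received chenodeoxycholic acid (CDCA), a primary bile acid, at 100 µM for 48 h. Each condition had 1 input library and 1 library from RNA pulled down with an m6A antibody, 4 samples in all, and peak lists of the 2 antibody libraries were analysed. With 1 library per group there is no replicate error and no test between conditions, and a difference may be one between libraries. In bulk RNA, fewer cells that carry a transcript and less of it per cell cannot be told apart. The identity of the line was not checked here, since the lists hold peaks and no expression values.

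AP-1 is a dimer of basic leucine zipper proteins, usually a JUN family member with a FOS family member, which binds DNA and switches genes on or off after growth factors, stress or injury. Several of the genes, such as FOS, JUN, JUNB and FOSB, and the zinc-finger gene EGR1, are known as immediate-early genes, whose transcripts appear soon after a stimulus without new protein synthesis and are short-lived. Others differ in their timing: FOSL1 and FOSL2 tend to follow later, and JUND is made at a steadier level. m6A is written on messenger RNA by a methyltransferase complex, lies often near stop codons, and is known for its part in mRNA decay.

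CDCA-treated cells had listed m6A peaks on 6 of the 9 genes and control cells on 3. JUND, FOSB and FOSL2 were listed in both conditions, JUN, JUNB and FOS in CDCA alone, and FOSL1, ATF3 and EGR1 in neither, and none was listed in control alone. Listing in 1 condition was the common case over all peaks: 77.8% of CDCA peaks and 81.8% of control peaks had no partner in the other list, and the control list was the longer. Of member peaks, 3 of 6 in CDCA and 2 of 5 in control had none, with strength not taken into account. These shares count peaks, and a share over all genes was not taken, as no hg19 annotation was used. The excess in CDCA came from genes with 1 peak each, of which only that of JUN was strong. When only peaks whose −log10 q (the authors' significance of a peak within its list) reached 50 were counted, each list had 3 genes. Counting peaks with a fold enrichment of at least 10 left 3 genes in control and 2 in CDCA, so the order turned. Fold enrichment ran higher in control, with a median over all peaks of 9.67 against 8.63 in CDCA. JUND passed in control alone, at 10.7 against 9.37, yet stood at or above 59.4% of control and 59.9% of CDCA peaks. FOSB also passed in control alone, its highest fold enrichment at or above 92.5% of control and 23.8% of CDCA peaks. Member peaks covered 2772 bp of the spans in control and 4031 bp in CDCA, and 1477 bp in both. The JUN peak made up 2097 bp of the CDCA length.

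**Figure D1:**
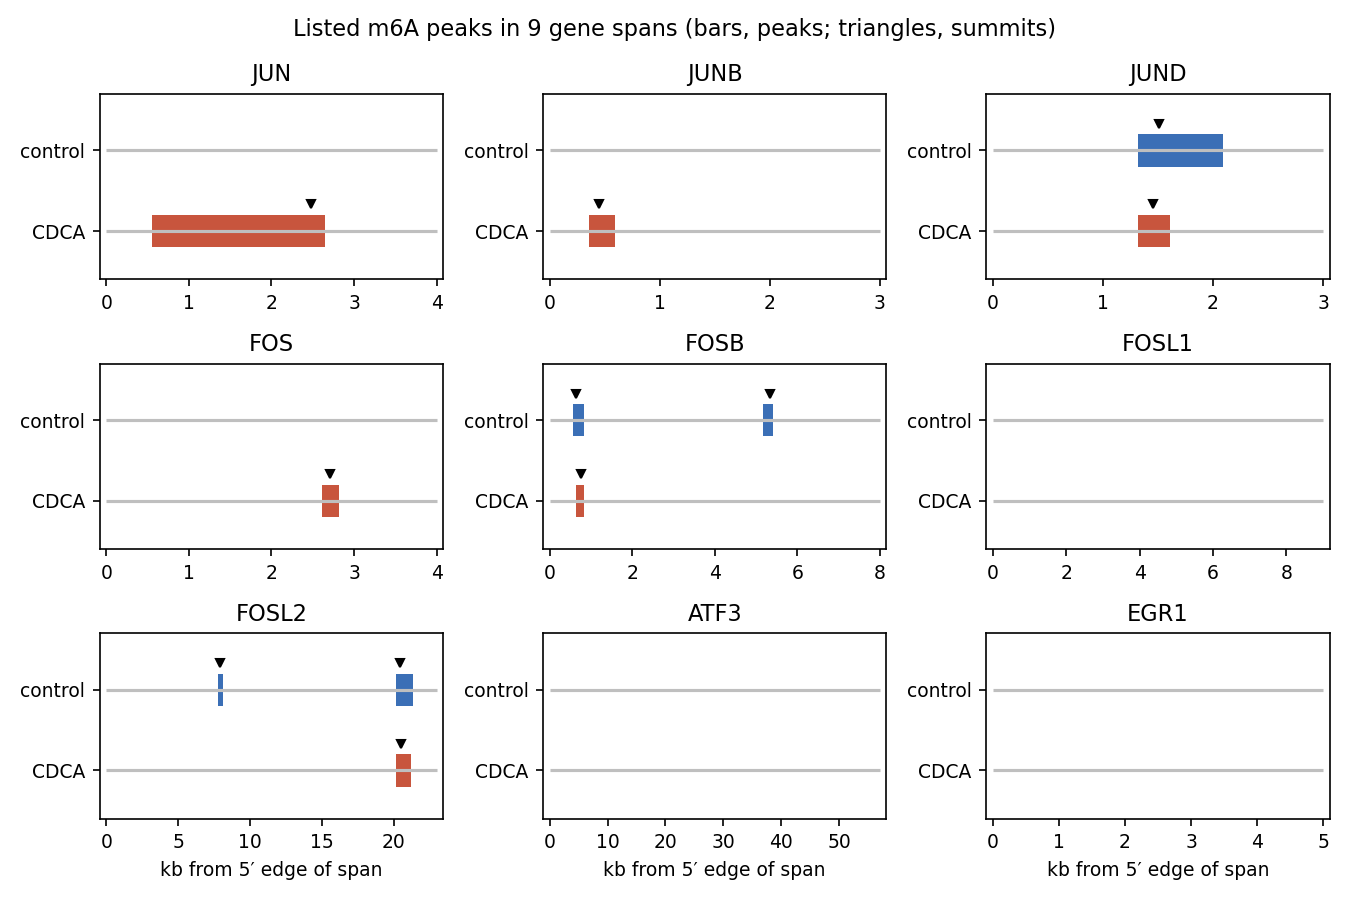
Listed m6A peaks in the 9 gene spans; the horizontal axis is the distance in kb from the 5′ edge of each span, bars are peaks and triangles are summits, with control above and CDCA below. The JUN peak fills 2097 bp of its span in the CDCA row alone, and the distal FOSL2 peak stands at the same place in both rows.

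The start-site windows of 4 genes are shown because JUN, JUNB and FOS share their listing in CDCA alone while FOSL2 has the strongest peak common to both lists. The sequences are from RefSeq on GRCh38.p14, run 5′ to 3′ on the gene's strand from 250 bases before to 50 bases after the gene's start, and are DNA of the reference, not of these cells. Of the 9 genes, 8 matched the table, ATF3 with 2 windows. Capitals mark matches on either strand to the motifs TGACNTCA (N is any base) or to TGACTCA or to TGACGT or to TATAAA or to the CArG box. TGACGT lies inside TGACNTCA where N is G.

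JUN: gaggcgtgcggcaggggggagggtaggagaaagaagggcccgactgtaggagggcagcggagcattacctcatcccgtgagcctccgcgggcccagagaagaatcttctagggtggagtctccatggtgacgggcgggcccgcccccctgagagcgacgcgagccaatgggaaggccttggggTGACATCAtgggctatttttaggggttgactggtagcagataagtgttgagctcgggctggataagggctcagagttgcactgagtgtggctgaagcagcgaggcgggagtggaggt
JUNB: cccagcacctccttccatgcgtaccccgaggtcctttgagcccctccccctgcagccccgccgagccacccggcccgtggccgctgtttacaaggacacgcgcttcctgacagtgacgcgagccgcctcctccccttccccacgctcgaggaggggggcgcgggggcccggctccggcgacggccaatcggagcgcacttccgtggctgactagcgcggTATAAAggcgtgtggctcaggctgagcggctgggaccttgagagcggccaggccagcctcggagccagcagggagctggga
FOS: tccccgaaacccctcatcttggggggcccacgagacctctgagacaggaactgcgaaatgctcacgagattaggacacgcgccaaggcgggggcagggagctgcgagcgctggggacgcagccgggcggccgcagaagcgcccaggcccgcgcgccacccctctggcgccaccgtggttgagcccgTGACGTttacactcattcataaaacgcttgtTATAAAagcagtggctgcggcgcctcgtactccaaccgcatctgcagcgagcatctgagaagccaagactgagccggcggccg
FOSL2: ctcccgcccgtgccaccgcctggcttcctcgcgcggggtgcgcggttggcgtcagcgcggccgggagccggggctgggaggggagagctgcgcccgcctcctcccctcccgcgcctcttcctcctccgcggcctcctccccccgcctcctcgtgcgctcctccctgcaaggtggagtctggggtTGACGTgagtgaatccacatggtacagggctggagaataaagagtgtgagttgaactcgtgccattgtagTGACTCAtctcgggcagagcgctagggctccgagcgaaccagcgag

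These motifs are known as sites of AP-1 and ATF proteins (TGACTCA and TGACNTCA), of CREB and ATF proteins (TGACGT), of serum response factor (CArG box) and of TATA-binding protein (TATAAA). JUN carried TGACATCA, a form of TGACNTCA, 67 bases before its start. JUND and ATF3 also held TGACNTCA, which was in 7.72% of all 35116 windows of the table. FOSL2 held TGACTCA 4 bases past its first base, a motif in 4.95% of all windows. TGACGT was found for FOS 64 bases before the start, and also for EGR1, FOSB, FOSL2 and JUND, against 7.98% of all windows. The CArG box, in 1.29% of all windows, was found for EGR1 alone among the 9 member windows. TATAAA stood in windows of ATF3, FOS, FOSB and JUNB, against 11.5% of all windows. It lay 33 bases before the start for FOS, 30 for FOSB and 31 for JUNB. For ATF3 it lay 230 bases before the start, in a single window. Within these windows, the 3 genes listed in CDCA alone had no motif of this set in common. Letters more than 250 bases before a start were not searched, so a motif not found for a gene may stand farther upstream. A match describes letters and is not a binding site.

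JUN, the founding AP-1 subunit and a target of the stress kinase JNK, had the most prominent peak of the CDCA-only genes. The peak lay on chromosome 1, written chr1:59247351-59249447, and was 2097 bp long, or 52.4% of the JUN span. The JUN gene is on the minus strand, and the peak was assigned to it without regard to strand. Its summit height was 958 in the authors' scaled units, which corresponds to 1498 fragments (95% Poisson interval 1423 to 1576) if each step of the height scale is 1 fragment. This is a tall and broad peak. The fold enrichment, taken as summit height over local background, was 16.1 and the −log10 q was 772, rank 508 of 52188 CDCA peaks. By length the peak ranked 64 in that list. No control peak overlapped it.

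The absence of JUN from the control list can be set against other strong peaks. Of all 4123 CDCA peaks whose −log10 q reached 100, 91.2% overlapped a control peak. JUN, at 772 and rank 508, was stronger than most of these. Among the 40604 CDCA peaks without a control partner, the JUN peak was 9th by −log10 q and 3rd by length. Of the 83 CDCA peaks over 2000 bp, 3 had no control partner. The nearest listed control peaks ended 9883 bp below the JUN peak and began 20623 bp above it.

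Peak numbers bear on what a missing entry means. Both lists number their peaks along each chromosome and leave out numbers, and no listed peak has a fold enrichment under 6. Between the control peaks on either side of JUN, 2 numbers were missing. A missing number has no position or value, so whether control cells had a numbered but unlisted peak on JUN was not tested. Over all CDCA-only peaks, 63.2% had a missing number beside them in the control list.

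The summit of the JUN peak lay 2478 bp from the 5′ edge and 1522 bp from the 3′ edge of the span. JUN has no introns, so the peak, which ran from 553 to 2649 bp past the 5′ edge, is not split by splicing. Its local background, recovered from height and fold enrichment, was 58.4 and stood at or above 99.4% of CDCA peaks. The median background of that list was 1.0.

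JUNB, a JUN relative that often damps JUN activity, had 1 short peak in CDCA-treated cells. It lay at chr19:12902354-12902593, was 240 bp long, and had its summit 448 bp from the 5′ edge of the span, nearer to a span's edge than any other member summit. The height of 62.7 corresponds to 98 fragments (80 to 119), with a local background of 8.0. A fold enrichment of 7.08 put it near the lower limit of the list, and the −log10 q was 30.8. In the CDCA list, 26.7% of peaks with a −log10 q of 20 to 50 overlapped a control peak, so the lack of a partner for JUNB was the commoner outcome. The control list lacked 1 number in the gap around it, between peaks 11503 bp below and 16046 bp above.

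JUND, a JUN family member, had 1 peak in each list. In control it lay at chr19:18390913-18391682, was 770 bp long, and had a height of 396, or 459 fragments (418 to 503). In CDCA the peak at chr19:18391393-18391678 was 286 bp long, with a height of 196, or 306 fragments (273 to 342). The CDCA peak lay wholly within the control peak and took 37.1% of its length, with summits 53 bp apart. Over all 11870 overlapping pairs of the lists, the median distance between summits was 51 bp (quartiles 19 and 130). Fold enrichment was 10.7 in control and 9.37 in CDCA, and −log10 q was 254 and 116. The local background was 36.0 in control and 20 in CDCA. Heights are scaled within each list and each condition had 1 library, so these values do not show a change.

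FOS, the partner of JUN in classical AP-1, had 1 weak peak in CDCA-treated cells. It lay at chr14:75747614-75747813 and had a length of 200 bp, the shortest in the lists. A height of 13.4, or 21 fragments (13 to 32.1), stood on a local background of 1.0, with a fold enrichment of 7.22. Its −log10 q of 8.92 was at or above 19.3% of CDCA peaks. Of CDCA peaks with a −log10 q under 20, 8.93% overlapped a control peak. The nearest listed control peaks were 138369 bp below and 265229 bp above, and 1 number was missing between them. The FOS peak is thus a site of few fragments without a partner, which was the usual case at that strength.

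FOSB, a FOS relative known for its lasting splice form in neurons, had 2 control peaks and 1 CDCA peak. The site near the 5′ edge was common to both lists. In control it lay at chr19:45971557-45971824 with a height of 43.1, or 50 fragments (37.1 to 65.9), a fold enrichment of 21.2 and a −log10 q of 50.3. In CDCA it lay at chr19:45971642-45971841 with a height of 11.5, or 18 fragments (10.7 to 28.4), a fold enrichment of 6.95 and a −log10 q of 7.79. The peaks overlapped by 183 bp and their summits were 138 bp apart, farther than the upper quartile of all pairs. Under a stricter partner rule of summits within 100 bp, this pair was lost and 2 shared pairs were left.

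The second FOSB site was listed in control alone. It lay at chr19:45976159-45976414, its summit 2656 bp from the 3′ edge, with a height of 25, or 29 fragments (19.4 to 41.6), a fold enrichment of 13 and a −log10 q of 24.3. Among control peaks with a −log10 q of 20 to 50, 13.6% had a CDCA partner. Here the CDCA list had no missing number between its neighbouring peaks, so no unlisted CDCA peak was numbered there. The other 4 of the 5 unshared member peaks had a missing number beside them. Over all control-only peaks, 73.2% had one. Local background at the FOSB peaks ran from 0.799 to 1.08, in the middle range of the lists, whose medians were 1.36 in control and 1.0 in CDCA.

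FOSL2, or FRA-2, a FOS relative of epithelial and bone cells, held the strongest site of the set, near the 3′ edge of its span. In control the peak lay at chr2:28635189-28636345, was 1157 bp long, and had a height of 1045, or 1212 fragments (1145 to 1282). In CDCA it lay at chr2:28635203-28636210, was 1008 bp long, and had a height of 882, or 1379 fragments (1307 to 1454). The CDCA peak fell wholly inside the control peak and the summits were 29 bp apart. Fold enrichment was 24.3 and 24.9, and −log10 q was 1022 (rank 379) and 873 (rank 411). Both summits lay close to 89% of the way along the span, 2541 and 2512 bp from its 3′ edge. The span of 23000 bp is shorter than the FOSL2 gene of the GRCh38.p14 table, 24460 bp, so the true end may lie farther off.

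A smaller FOSL2 site was listed in control alone. It lay at chr2:28622797-28623117, 7924 bp from the 5′ edge at its summit, with a height of 68.1, or 79 fragments (62.5 to 98.5), a fold enrichment of 13.3 and a −log10 q of 53.9. Of control peaks with a −log10 q of 50 to 100, 42.1% had a CDCA partner. The CDCA list lacked 2 numbers in the gap around this site, which reached 66800 bp below and 12086 bp above it.

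**Figure D2:**
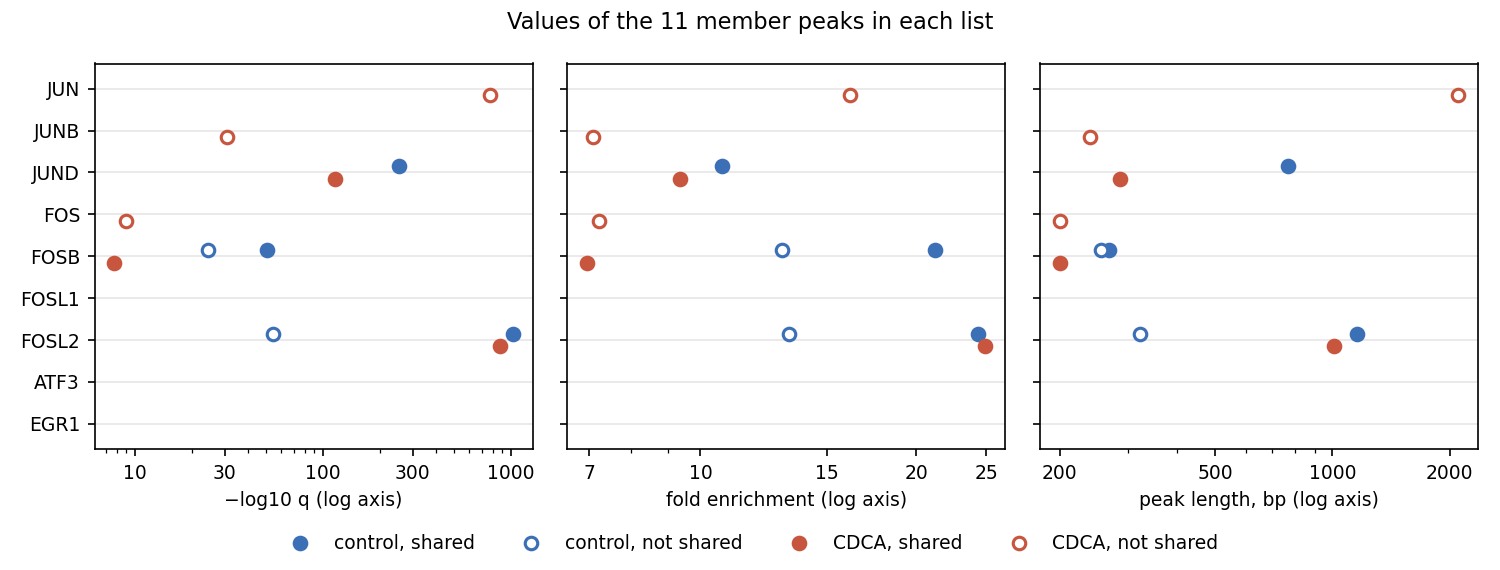
The −log10 q, fold enrichment and length in bp of the 11 member peaks by gene, on log axes; blue is control, red is CDCA, filled circles overlap a peak of the other list and open circles do not. JUN is the only open circle with a −log10 q over 100, and the FOSL2 circles at the right lie close together in both lists.

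FOSL1, or FRA-1, ATF3, a stress-induced repressor and activator, and EGR1, a growth-induced zinc-finger factor, had no peak with a summit in their spans. For FOSL1, 4 numbers were missing around the span in control and 9 in CDCA. For ATF3, 1 number was missing around the span in each list. For EGR1, 6 numbers were missing around the span in control and 1 in CDCA, so numbered but unlisted peaks may lie in or beside these spans. Beside FOSL1 a very strong peak had its summit just outside the span, past the 3′ edge, by 52 bp in control and 58 bp in CDCA. It lay at chr11:65658378-65659139 in control and chr11:65658363-65659132 in CDCA. Its fold enrichment was 16.3 and 18.8, and its −log10 q was 3824 and 3878, above every member peak. The FOSL1 span of 9000 bp is longer than the gene in the GRCh38.p14 gene table, 8497 bp. The summits may therefore lie farther past the gene's true 3′ end than past the span's 3′ edge. In that gene table the neighbour of FOSL1 on that side is CCDC85B, and which gene the peak belongs to was not tested. Moving the span edges by 1 kb would count it for FOSL1 and give 7 genes in CDCA and 4 in control.

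In all, 3 of the 5 control member peaks overlapped a CDCA peak, against 18.2% of all control peaks. Of the 6 CDCA member peaks, 3 overlapped a control peak, against 22.2% of all CDCA peaks. Strength was not equal between these groups. Where −log10 q reached 100, both control member peaks were shared, against 87.6% of all such control peaks. At that level 2 of 3 CDCA member peaks were shared, and the exception was JUN.

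**Figure D3:**
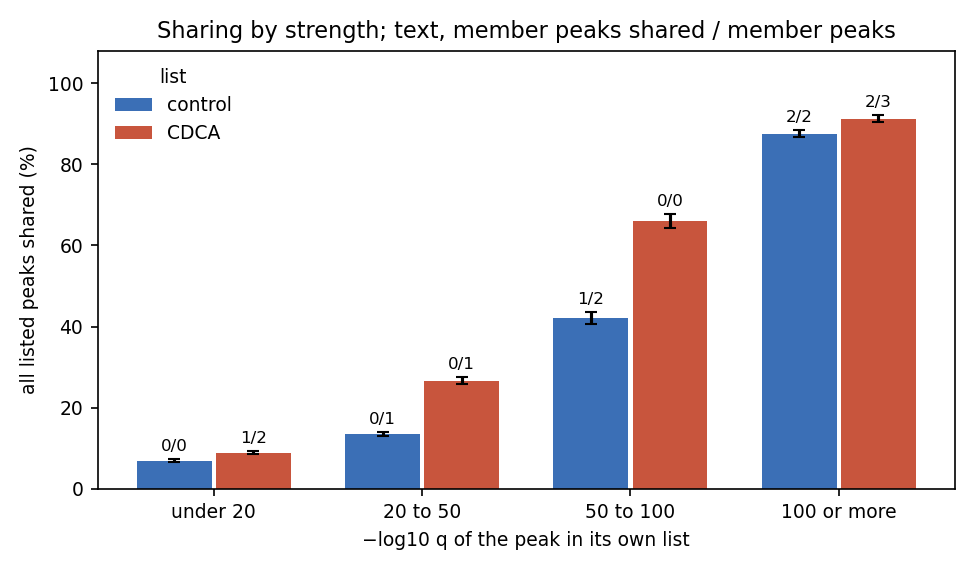
Share in percent of all listed peaks that overlap a peak of the other list, by −log10 q in their own list (error bars, exact 95% Clopper-Pearson intervals, counting error only); the text over each bar gives shared member peaks of member peaks. Shares rise with strength to 87.6% in control and 91.2% in CDCA, where 2 of 2 and 2 of 3 member peaks are shared.

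Local background differed widely among the member peaks. JUN, JUND and the distal FOSL2 site stood on a background of 20 to 58.4, and these 5 peaks are also the ones whose −log10 q reached 100. JUNB and the small FOSL2 site had backgrounds of 8.0 and 4.20, at or above 91.4% and 84.2% of the peaks of their lists. FOS and FOSB stood at 0.799 to 1.08, between 38.2% and 45.8% of the way up the peaks of their list, where the median was 1.36 in control and 1.0 in CDCA. The background was recovered from height and fold enrichment, and no source used here states which library its reads came from. Heights rise in steps that differ between the lists, and whether the background differs in scale too was not tested. How far it reflects transcript amount was not tested.

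**Figure D4:**
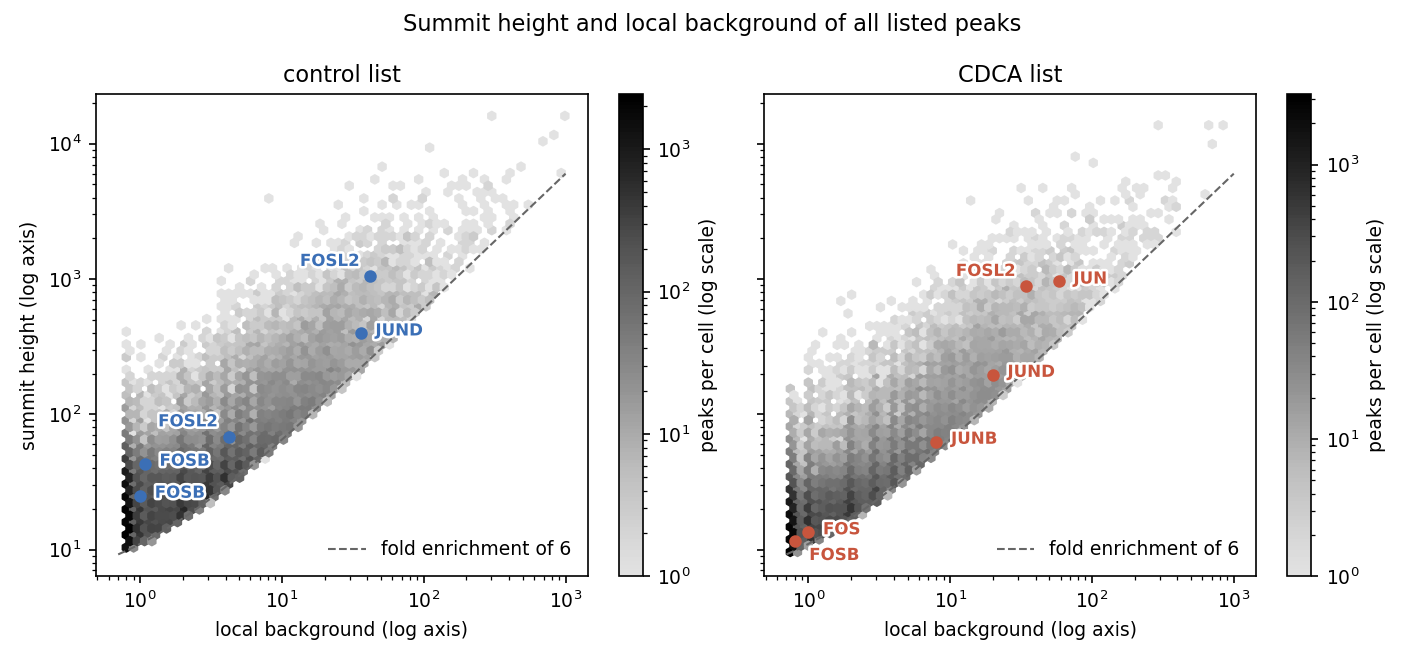
Summit height against local background for all listed peaks of control (left) and CDCA (right), on log axes in the authors' scaled units; grey cells show peak number, coloured points are member peaks and the dashed line marks a fold enrichment of 6. JUN and the distal FOSL2 site sit at high background and well above the line, whereas JUNB, FOS and the CDCA peak of FOSB lie just over it.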

How the data were processed

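The data were 2 peak tables, 1 per m6A antibody library. Per the submitters' processing notes, hg19 was the build and the tools included MACS2 2.1.0 and TopHat2 2.0.13, with no roles stated. No source used here states the thresholds or the input. The pileup that the authors deposited is a signal: per the file headers it gives summit height. Each peak also carries 2 deposited significance values, −log10 p-value and −log10 q-value. The authors' fold enrichment is a ratio. Peaks were listed per library.

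All 9 genes are named. Members and lists were chosen with earlier results of these data known. Gene spans came with the rule for the set. Other pathway genes, transcript parts and motifs at summits were planned but not analysed here, as no hg19 annotation or genome was used. Partners overlapped by at least 1 bp. Gene strand set the 5′ and 3′ edges of a span, and peaks were assigned and paired without strand. Heights were whole multiples of 0.862 in control and 0.640 in CDCA for 100% of peaks (tolerance 0.02 steps plus rounding), and the multiple was read as fragments. Intervals are exact Poisson or Clopper-Pearson at 95% and cover counting error only. Local background was height plus 1 over fold, minus 1. A Poisson tail with it gave the listed −log10 p of each member peak within 0.0309%. Depth in reads is unknown. Tools were scipy 1.17.1, pandas 2.3.3 and numpy 2.4.6 under Python 3.11.15, with figures by matplotlib 3.10.9. Overlap, membership and step finding were tested on simulated data of 5000 peaks, with 100% right answers. Alternatives covered thresholds, list length, span edges and partner rules.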

Additional observations from a re-analysis of the deposited data

How the results depend on the processing

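The number of genes and peaks in the CDCA list depended on the threshold. With a −log10 q of at least 50, CDCA held 3 genes and 3 peaks. With a fold of at least 10, CDCA held 2 genes and 2 peaks, and 1 shared peak was left in each list. Of 48 values recomputed under these and the other alternatives (a −log10 q of at least 20, equal numbers of peaks, any overlap with a span, spans extended by 1 kb, 3 other partner rules), the other 42 stayed within 1.5 times the reported value. The control list held 3 genes at each threshold. No paired analysis was possible because each group had 1 library. Peaks of few fragments, FOS and the CDCA peak of FOSB, limit what the lists can show, since a site just under the authors' thresholds is not listed. Leaving out a replicate was not possible with 1 library per group.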
